A study of Homo sapiens with 10 samples.

Results

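The 8 genes described here encode transcription factors that shape epithelia: the OVO-like zinc finger factors OVOL1 and OVOL2, the grainyhead-like factors GRHL1, GRHL2 and GRHL3, the Kruppel-like factors KLF4 and KLF5, and the p53 family member TP63. They were chosen by symbol, and each was found once among the 23170 gene rows of every comparison. The data were RNA-seq of 10 samples of the PC3 prostate cancer cell line in 4 groups. PC3-Epi (2 samples) was the epithelial control, a luciferase-expressing subpopulation of PC3 picked for its epithelial shape. PC3-EMT14 (3 samples) was a stably mesenchymal population isolated after co-culture of PC3-Epi with IL4-treated macrophages, so it is a single isolate. The OVOL1 line (labelled PC3-EMT14-OVOL1, 3 samples) overexpressed OVOL1 in PC3-EMT14 cells from a lentivirus. The OVOL2 line (labelled PC3-EMT14-OVOL2, 2 samples) did so with OVOL2, from a construct with a V5 tag. All 4 groups share the PC3 background, and the RNA-seq control for the OVOL lines was labelled PC3-EMT14, with no mention of an empty vector.

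OVO-like factors are repressors that help to hold epithelial cells in the epithelial state, and ZEB1 is their best known counterpart on the mesenchymal side. Grainyhead-like factors bind directly to genes of cell junctions and of the epithelial barrier and keep them active. KLF4, KLF5 and TP63 take part in the differentiation and renewal of stratified and glandular epithelia, and TP63 marks basal cells of the normal prostate.

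Values are FPKM (fragments scaled by transcript length and by library size), which are per length and so can be set side by side between genes. The deposited tables hold 1 FPKM per group, pooled by the authors over its samples, in each of 4 comparisons. No spread between samples, no interval and no test can therefore be given for any value below, and the sequencing depth is unknown. Each line was read from its table against PC3-EMT14, and PC3-EMT14 is given as a range over its 3 tables for the 8 factors, and from its table with the OVOL1 line for other genes. A gene is called when the ratio of the 2 pooled values is at least 2 (or at most 0.5) with at least 1 FPKM in the higher group. Where a line occurs in several tables, the members' values differed between tables by 0.0413% to 3.33%, which measures scaling and not replicate error. In bulk RNA, fewer cells expressing a gene and less RNA per cell cannot be told apart.

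Markers were read first as a check of the labels. CDH1, the epithelial cadherin, stood at 0.981 FPKM in PC3-EMT14, 16.2 in the OVOL1 line, 39.2 in the OVOL2 line and 50.6 in PC3-Epi. The intermediate filament gene VIM ran the other way, from 265 FPKM in PC3-EMT14 to 183, 76.9 and 42.5. The other mesenchymal markers did not keep this order. FN1, the gene of fibronectin, was at 36.0, 18.4, 16.5 and 33.8 FPKM and was called lower in the OVOL2 line alone. CDH2, the neural cadherin, was at 17.6, 13.3, 10.1 and 11.3 FPKM and was not called. Of the 5 epithelial markers, 2 were called higher in the OVOL1 line, 3 in the OVOL2 line and 4 in PC3-Epi. The keratin gene KRT18 was at 115, 156, 215 and 351 FPKM and was called in PC3-Epi alone. KRT19 was at 656, 608, 862 and 742 FPKM and was not called. Of the 4 prostate luminal markers, KLK3 and KLK2 were listed at 0 in every line. All 12 macrophage markers were below 0.1 FPKM in every table, with sums of 0.193 to 0.379 FPKM.

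Sequence before the gene starts was taken from the RefSeq promoter table (GRCh38.p14), in which 5 of the 8 genes had 7 entries. These were GRHL1, GRHL3, KLF4, KLF5 and TP63. OVOL1, OVOL2 and GRHL2 had none. The 250 bases before each start were searched on both strands for CACCTG (the E-box core read by ZEB and SNAI factors), CCGTTA (an OVO core), AACCGGTT (a grainyhead site) and CACCC (a KLF site). Of all 35116 promoters in the table, 17.5% held CACCTG, 2.45% CCGTTA, 0.117% AACCGGTT and 54.7% CACCC. Among the 7 entries, CACCTG occurred once, in the first GRHL3 promoter, and neither CCGTTA nor AACCGGTT occurred in any. CACCC was found in both GRHL3 and both KLF5 entries, and no matches overlapped each other. Shown are windows of GRHL3 and GRHL1, which were higher in PC3-Epi, and of KLF5, which was level. Capitals mark CACCTG and CACCC, or GGGTG where CACCC lies on the other strand. All 3 are on the plus strand and matched GRCh37, the build of the deposited coordinates (hg19), exactly once, at chr1:24645597-24645831, chr2:10091572-10091791 and chr13:73632893-73633141. The GRHL1 window ends before the start of its GENCODE gene. The GRHL3 and KLF5 windows lie inside the longer GENCODE genes.
GRHL3: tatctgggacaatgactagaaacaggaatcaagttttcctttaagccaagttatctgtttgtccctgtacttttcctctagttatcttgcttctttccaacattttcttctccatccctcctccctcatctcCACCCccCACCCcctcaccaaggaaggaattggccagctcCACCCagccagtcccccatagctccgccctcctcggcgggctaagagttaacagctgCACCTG
GRHL1: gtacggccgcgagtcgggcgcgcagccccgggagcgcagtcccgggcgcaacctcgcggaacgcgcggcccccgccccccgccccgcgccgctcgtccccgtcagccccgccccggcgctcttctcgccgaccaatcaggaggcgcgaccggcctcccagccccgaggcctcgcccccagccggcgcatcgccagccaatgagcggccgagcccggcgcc
KLF5: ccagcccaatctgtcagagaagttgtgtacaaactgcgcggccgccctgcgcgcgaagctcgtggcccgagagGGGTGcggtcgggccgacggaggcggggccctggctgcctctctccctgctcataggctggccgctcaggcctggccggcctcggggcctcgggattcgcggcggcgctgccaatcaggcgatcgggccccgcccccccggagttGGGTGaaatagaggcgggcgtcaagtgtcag
The CACCTG of GRHL3 lies 21 to 16 bases before the RefSeq start, and its CACCC matches lie 118 to 74 bases before it. The deposited GRHL3 locus begins earlier, at chr1:24645812, so this CACCTG lies inside that locus. The GRHL3 window was printed past the deposited start to show it, whereas the GRHL1 and KLF5 windows stop where their deposited loci begin. The GRHL1 window holds none of the 4 motifs. A match describes letters only, and no binding was measured here.

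The first question was which of the 8 factors differ between the epithelial and the mesenchymal cells. PC3-Epi had 5 of the 8 called higher than PC3-EMT14, and none lower. These were both OVO-like and all 3 grainyhead-like factors. Among the 12441 genes with at least 1 FPKM in either line, 7.37% were called higher and 8.34% lower. Of the 8 factors, 7 had at least 1 FPKM in either line, and TP63 did not.

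OVOL1 (XLOC_003457, chr11:65554529-65564685), a zinc finger repressor of epithelial tissues, was at 0.0236 to 0.0243 FPKM in PC3-EMT14 and at 4.25 in PC3-Epi. OVOL2 (XLOC_013190, chr20:18004796-18038521), its paralog, was at 0.370 to 0.383 FPKM in PC3-EMT14 and at 9.91 in PC3-Epi. The ratio was 174 for OVOL1 and 25.9 for OVOL2, the first over a level so low that it should be read as large rather than exact. GENCODE places genes of the opposite strand within the locus of OVOL1 (2), GRHL1 (2), GRHL2 (3), GRHL3 (2), KLF4 (1) and TP63 (1), and the sources used here do not say whether counting used strand.

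GRHL2 (XLOC_020657, chr8:102504668-102681952), a direct activator of junction genes, had the highest level of the 3 grainyhead-like genes in PC3-Epi, at 15.0 FPKM. It was at 0.102 to 0.106 FPKM in PC3-EMT14, a ratio of 142. GRHL1 (XLOC_011462, chr2:10091792-10142412), which regulates desmosomal cadherins in skin, was at 1.34 to 1.38 FPKM in PC3-EMT14 and at 5.13 in PC3-Epi, a ratio of 3.71. GRHL3 (XLOC_000175, chr1:24645812-24741587), needed for the skin barrier, was at 0.0481 to 0.0497 FPKM in PC3-EMT14 and at 2.49 in PC3-Epi, a ratio of 50.04. GRHL1 was thus the only grainyhead-like gene above 1 FPKM in the mesenchymal line, and the order of the 3 genes in PC3-Epi was GRHL2, GRHL1, GRHL3.

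The deposited GRHL3 locus runs beyond GRHL3 into a gene on the opposite strand, listed as C1orf201 and annotated in GENCODE as STPG1. C1orf201 was at 6.90 FPKM in PC3-EMT14 and 4.54 in PC3-Epi, the opposite order to GRHL3. It was level in the OVOL lines, at 6.80 and 6.94 FPKM.

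KLF4 (XLOC_021873, chr9:110247133-110252047), a factor of differentiating epithelia, was at 9.81 to 10.1 FPKM in PC3-EMT14 and 10.3 in PC3-Epi. KLF5 (XLOC_005652, chr13:73633142-73651676), a factor of proliferating epithelia, was at 27.2 to 28.1 FPKM in PC3-EMT14 and 26.9 in PC3-Epi. Both were well expressed in mesenchymal and epithelial cells alike, with ratios of 1.01 for KLF4 and 0.957 for KLF5. TP63 (XLOC_014724, chr3:189349216-189615068) was at 0.0211 to 0.0218 FPKM in PC3-EMT14 and 0.174 in PC3-Epi, under the 1 FPKM floor in both.

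**Figure D1:**
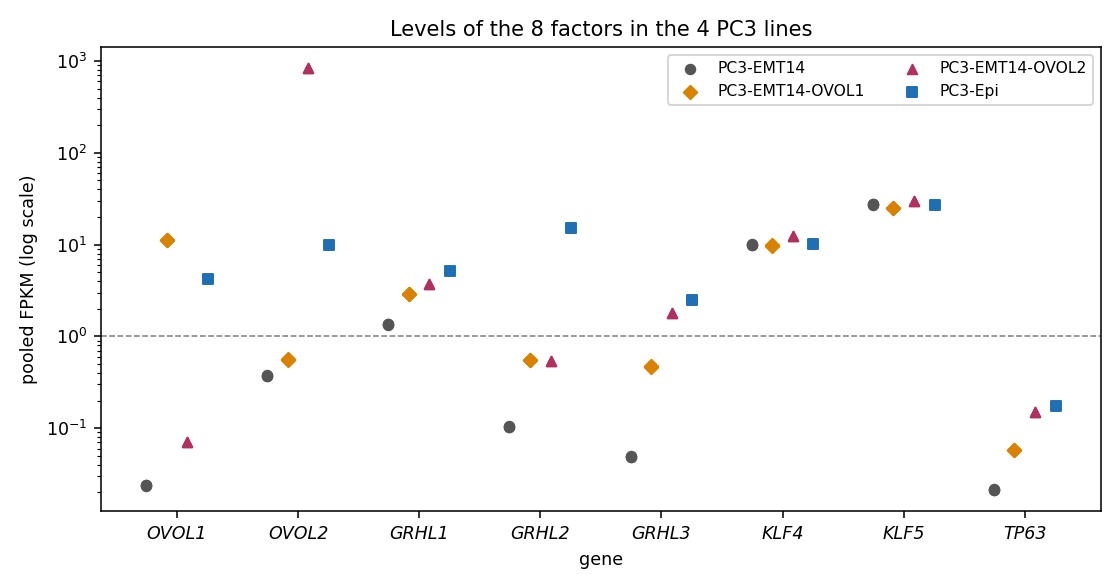
Pooled FPKM (log scale) of each factor in the 4 lines, 1 point per deposited table, with the points of a line lying almost on top of each other. The dashed line is the floor of 1 FPKM. KLF4 and KLF5 are level, TP63 lies under the floor everywhere, and GRHL2 exceeds 1 FPKM in PC3-Epi alone.

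The next question was how the other 7 factors stood in the lines that overexpress 1 OVO-like factor. The transgenes were present in their own lines, where reads from the transgene and from the cell's own gene are counted together. OVOL1 was at 11.3 FPKM in the OVOL1 line, above the 4.25 of PC3-Epi. OVOL2 was at 831 FPKM in the OVOL2 line, far above the 9.91 of PC3-Epi. Set as folds over PC3-EMT14, OVOL1 reached 2.71 times and OVOL2 86.6 times the PC3-Epi fold. Within the table that holds both lines, OVOL2 in its line was 74.5 times OVOL1 in its own. FPKM is scaled by the length of the annotated transcript. The sources used here do not say how much of each transcript the constructs carry, so these comparisons of transgene levels are approximate.

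In neither OVOL line did the other OVO-like gene stand at its epithelial level. Below, a line's share of the PC3-Epi difference is its fold over PC3-EMT14 minus 1, as a percentage of the same quantity in PC3-Epi, so that no change is 0%. OVOL2 was at 0.562 FPKM in the OVOL1 line, 1.502 times PC3-EMT14 and 2.01% of the PC3-Epi difference. OVOL1 was at 0.0701 FPKM in the OVOL2 line, 2.97 times PC3-EMT14 and 1.14% of the PC3-Epi difference. Neither gene was called. Both values are below 1 FPKM, and the OVOL2 ratio is also below 2.

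In the OVOL1 line, 2 of the 8 factors were called higher, OVOL1 itself and GRHL1, and none lower. Over the 12197 genes with at least 1 FPKM in either line, 2.43% were called higher and 1.54% lower. In the OVOL2 line, 3 of the 8 were called higher, OVOL2 itself, GRHL1 and GRHL3, and none lower. There the background was 12307 genes, 4.42% called higher and 2.93% lower. Of the 8 factors, 4 passed the floor in the first comparison and 5 in the second. Leaving the transgene aside, 1 factor was called in the OVOL1 line and 2 in the OVOL2 line.

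GRHL1 was at 2.93 FPKM in the OVOL1 line and 3.77 in the OVOL2 line, 2.16 and 2.81 times PC3-EMT14. Its call in the OVOL1 line is lost when 1 FPKM is added to each value, where the log2 ratio is 0.74. GRHL3 was at 0.472 FPKM in the OVOL1 line and 1.79 in the OVOL2 line, 9.71 and 37.3 times PC3-EMT14. For both genes the lines stood in the order PC3-EMT14, OVOL1 line, OVOL2 line, PC3-Epi. GRHL1 reached 42.9% and 66.9% of the PC3-Epi difference, and GRHL3 reached 17.8% and 74.0%. As parts of the log2 ratio of PC3-Epi, the values were 58.8% and 78.9% for GRHL1 and 58.1% and 92.5% for GRHL3, so the gap between the genes in the OVOL1 line depends on the scale.

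GRHL2 followed another course. It was at 0.556 FPKM in the OVOL1 line and 0.544 in the OVOL2 line, 5.37 and 5.31 times PC3-EMT14, so the 2 lines stood almost level. Both values are under the floor and far from the 15.0 FPKM of PC3-Epi. The lines reached 3.10% and 3.05% of the PC3-Epi difference, or 33.9% and 33.7% of its log2 ratio. GRHL2 was the only grainyhead-like gene not called in either OVOL line.

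KLF4 was at 9.85 FPKM in the OVOL1 line and 12.3 in the OVOL2 line, and KLF5 at 25.3 and 29.6. Their ratios to PC3-EMT14 lay between 0.922 and 1.26, and none was called. TP63 was at 0.0579 FPKM in the OVOL1 line and 0.151 in the OVOL2 line. These are 2.71 and 7.13 times PC3-EMT14, but TP63 stayed under the floor in every line.

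**Figure D2:**
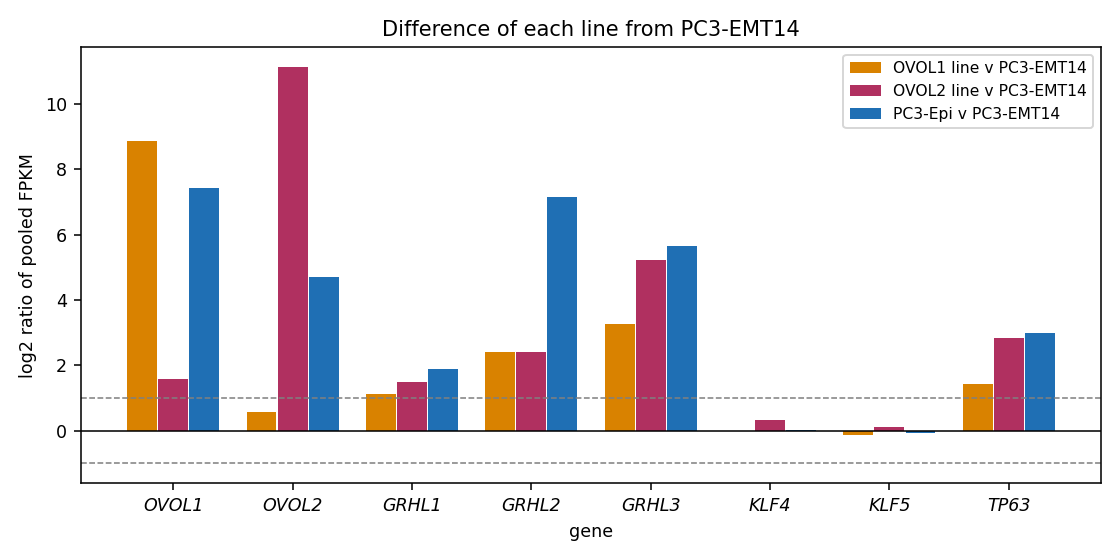
Log2 ratio of pooled FPKM (no pseudocount) of the OVOL1 line, the OVOL2 line and PC3-Epi over PC3-EMT14, 1 bar per comparison; dashed lines mark ratios of 2 and 0.5. The bars of OVOL1 and OVOL2 in their own lines include the transgene, and the tall bars of TP63 and of GRHL2 in the OVOL lines rest on levels under 1 FPKM.

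The direct comparison of the OVOL lines has values of its own. There OVOL2 (0.556 FPKM in the OVOL1 line and 831 in the OVOL2 line) and GRHL3 (0.467 and 1.79) were called higher in the OVOL2 line, and OVOL1 (11.2 and 0.0700) lower. Of the 12188 genes over the floor, 1.90% were called higher and 1.17% lower. The GRHL3 ratio was 3.84, and the call is lost when 1 FPKM is added to each value, where the log2 ratio is 0.93. GRHL1 stood at 2.90 and 3.77 FPKM, a ratio of 1.30, and GRHL2 at 0.550 and 0.544, a ratio of 0.988. The OVOL1 and OVOL2 transgenes differ in construct, tag and level as well as in the factor, so their parts in these differences cannot be told apart.

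Isoform rows were deposited for each factor. OVOL1, OVOL2, GRHL1, GRHL2, KLF4 and KLF5 had 1 row each. GRHL3 had 4, and TCONS_00000287 carried most of its signal, 92.2% in the OVOL1 line, 97.2% in the OVOL2 line and 97.3% in PC3-Epi. In PC3-EMT14 the same isoform took 76.7%, over a total under 0.05 FPKM. TP63 had 6 rows. In PC3-Epi, TCONS_00023897 was the largest at 0.115 FPKM and 66.0% of the sum. In the OVOL2 line the largest was TCONS_00023894, at 0.0564 FPKM and 37.5%, an isoform listed at 0 in PC3-Epi and PC3-EMT14. At such levels the split between TP63 isoforms rests on few reads. The rows carry no transcript names, so the isoforms are given by their identifiers.

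Known targets of the grainyhead-like factors were compared across the same lines, as a list of 15 genes. This list, like those that follow, was chosen with earlier results of these data known. Its counts and medians are therefore a description and no test of grainyhead activity. In the OVOL1 line 5 were called higher, in the OVOL2 line 9 and in PC3-Epi 10, and none was called lower in any. Of the 15, 11, 12 and 13 had at least 1 FPKM in either line of these comparisons. Among all genes over the floor, 2.43%, 4.42% and 7.37% were called higher in these comparisons. Over the 13 genes with a mean of at least 1 FPKM across the lines, the median log2 ratio was 0.97, 1.30 and 3.26, beside 0.00, -0.04 and -0.01 over all genes chosen the same way. A mean across the lines can admit a gene through PC3-Epi alone, as it did RAB25. The 0.97 of the OVOL1 line is the ratio of RAB25 itself, between 0.0554 FPKM in PC3-EMT14 and 0.108 in the OVOL1 line, so it should not be leaned on. CDH1, EPCAM (an epithelial adhesion molecule), ST14 (the membrane protease matriptase), TMEM30B (a flippase subunit) and ESRP1 (an epithelial splicing regulator) were called in all 3 comparisons. ST14 was at 0.520 FPKM in PC3-EMT14, 28.9 in the OVOL1 line, 55.8 in the OVOL2 line and 135 in PC3-Epi. ESRP1 was at 0.406, 15.2, 11.7 and 84.6 FPKM in the same order, and the tables mark its quantification as failed wherever the OVOL2 line was involved.

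RAB25, a small GTPase of epithelial membrane traffic, had shares of the PC3-Epi difference near 0% in both OVOL lines. It was at 0.0554 FPKM in PC3-EMT14, 0.108 in the OVOL1 line, 0.122 in the OVOL2 line and 24.2 in PC3-Epi. The shares were 0.225% and 0.286%, or 11.1% and 13.2% of the log2 ratio. Over the 10 targets called in PC3-Epi, the share had a median of 14.8% in the OVOL1 line and 32.4% in the OVOL2 line (56.4% and 68.8% of the log2 ratio). These 10 were picked by their PC3-Epi ratio, which is also the divisor of the share, and this favours low shares. RAB11FIP1, a target called in the OVOL2 line alone, was thereby left out. It was at 4.26 FPKM in PC3-EMT14, 6.42 in the OVOL1 line, 9.59 in the OVOL2 line and 7.21 in PC3-Epi. MAL2, a transcytosis protein with a PC3-Epi ratio of 2.499, had shares of 59.7% and 97.9%. ARHGEF19, a guanine nucleotide exchange factor, was called in PC3-Epi alone, at 7.01 FPKM against 2.60 in PC3-EMT14, with 2.37 and 2.93 in the OVOL lines. MARVELD3, a tight junction protein, was at 0.0676 FPKM in PC3-EMT14, 0.887 in the OVOL1 line, 2.34 in the OVOL2 line and 8.48 in PC3-Epi. The tight junction genes CLDN3 and CLDN4, also on the list, were not called, at 24.1 to 25.9 FPKM and 212 to 306 FPKM.

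**Figure D3:**
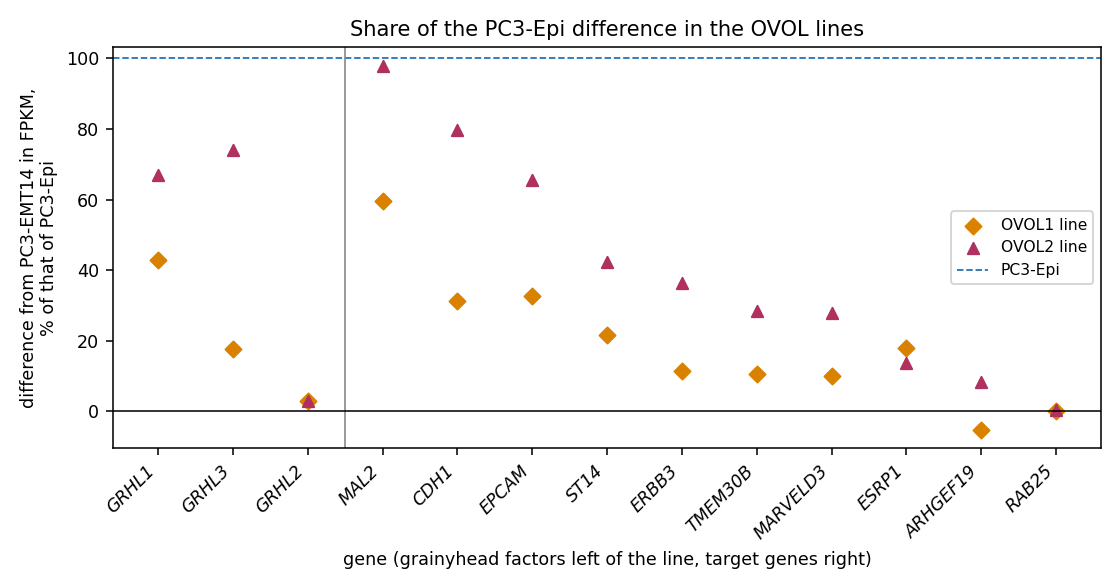
Difference of each OVOL line from PC3-EMT14 (fold minus 1) as a percentage of that of PC3-Epi, for the 3 grainyhead-like genes and the 10 grainyhead targets called in PC3-Epi. GRHL2 at 3.10% and 3.05% and RAB25 at 0.225% and 0.286% lie near the line of no change (0%); the dashed line is PC3-Epi.

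Genes that OVO-like factors are known to repress formed a list of 4. ZEB1, the mesenchymal zinc finger repressor, was at 7.43 FPKM in PC3-EMT14, 4.25 in the OVOL1 line, 1.77 in the OVOL2 line and 0.130 in PC3-Epi. It was called lower in the OVOL2 line and in PC3-Epi. ID2, an inhibitor of helix-loop-helix factors, was at 7.78, 3.49, 4.59 and 2.36 FPKM and was called lower in the OVOL1 line and in PC3-Epi. The median log2 ratio of the 4 was -0.31 in the OVOL1 line, -0.10 in the OVOL2 line and -0.98 in PC3-Epi. MYC and NOTCH1 were not called lower in any. MYC was higher in each line than in PC3-EMT14, at 66.1, 131, 124 and 96.7 FPKM, and its ratios fell short of 2. Among the 7 EMT repressors, SNAI2 was called lower in all 3 comparisons, at 3.97 FPKM in PC3-EMT14 and 1.47, 1.80 and 1.35 in the others. SNAI1 was at 1.32 FPKM in PC3-EMT14, 2.67 and 2.65 in the OVOL lines and 2.46 in PC3-Epi. Its ratio of 2.03 in each OVOL line was a call that adding 0.1 FPKM removed, and its ratio in PC3-Epi was 1.83.

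Known targets of TP63 were set beside the near absence of TP63 itself. Of 14 such genes, 5 were called higher in the OVOL1 line, 6 in the OVOL2 line and 4 in PC3-Epi, and none lower. In each comparison 12 of the 14 had at least 1 FPKM in either line. The shares called higher over all genes above the floor were 2.43%, 4.42% and 7.37%. ITGA6, FERMT1 and CDKN1A were lower than in PC3-EMT14 in all 3 comparisons, with ratios of 0.586 to 0.711, and were not called. CDH3, the placental cadherin, was at 2.23 FPKM in PC3-EMT14 and 19.9, 39.2 and 36.5 in the OVOL1 line, the OVOL2 line and PC3-Epi. JAG2, a Notch ligand, was at 4.08, 8.50, 9.81 and 9.32 FPKM in the same order of lines. ITGB4, a hemidesmosomal integrin, was called in the OVOL lines but not in PC3-Epi, at 99.4, 209, 269 and 125 FPKM. Of the basal keratins on the list, KRT5 and KRT14 were under 0.1 FPKM in every line. KRT15 was abundant, at 28.7, 64.7, 54.3 and 56.9 FPKM, and was called higher in the OVOL1 line with a ratio of 2.26, against 1.91 and 1.94 in the OVOL2 line and PC3-Epi. Over the 12 genes with a mean of at least 1 FPKM the median log2 ratio was 0.43, 1.11 and 0.43. Over all genes chosen the same way it was 0.00, -0.04 and -0.01.

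Of the 15 other Kruppel-like genes, none was called in the OVOL1 line, 1 in the OVOL2 line and 3 in PC3-Epi. Of the 15, 9, 10 and 10 had at least 1 FPKM in either line of these comparisons. Among all genes over the floor, 3.97%, 7.35% and 15.7% were called in either direction. KLF9, a hormone-responsive family member, was at 1.75 FPKM in PC3-EMT14, 0.883 in the OVOL1 line, 0.775 in the OVOL2 line and 0.0926 in PC3-Epi. It was called lower in the OVOL2 line and PC3-Epi. In PC3-Epi KLF2 was called lower (1.70 FPKM in PC3-EMT14 and 0.703) and KLF7 higher (0.685 and 2.17). Over the 9 with a mean of at least 1 FPKM the median log2 ratio was 0.19, 0.32 and 0.35 in the OVOL1 line, the OVOL2 line and PC3-Epi. KLF6 and KLF10 were well expressed, like KLF4 and KLF5, and were not called. Of the 6 other members of the OVO, grainyhead and p53 families, OVOL3 had no row, and none of the remaining 5 was called.

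Of 10 other epithelial transcription factors, 2 were called higher in the OVOL1 line, 3 in the OVOL2 line and 5 in PC3-Epi, and none lower. In each comparison 8 of the 10 had at least 1 FPKM in either line. The shares called higher over all genes above the floor were 2.43%, 4.42% and 7.37%. Over 8 of the factors with a mean of at least 1 FPKM the median log2 ratio was 0.44, 0.59 and 1.21. Over all genes chosen the same way it was 0.00, -0.04 and -0.01. EHF, an ETS factor, was at 0.450 FPKM in PC3-EMT14, 2.30 in the OVOL1 line, 4.48 in the OVOL2 line and 11.8 in PC3-Epi. GATA3 and SPDEF were called in PC3-Epi alone, at 5.46 and 45.5 FPKM against 0.999 and 19.6 in PC3-EMT14. Of 15 genes of epidermal differentiation, the program in which these factors are best known, 1 was called in any comparison, and at most 2 passed the floor in any of them. This was CDSN, the gene of corneodesmosin, at 1.53 FPKM in PC3-Epi and 0.362 in PC3-EMT14.

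**Figure D4:**
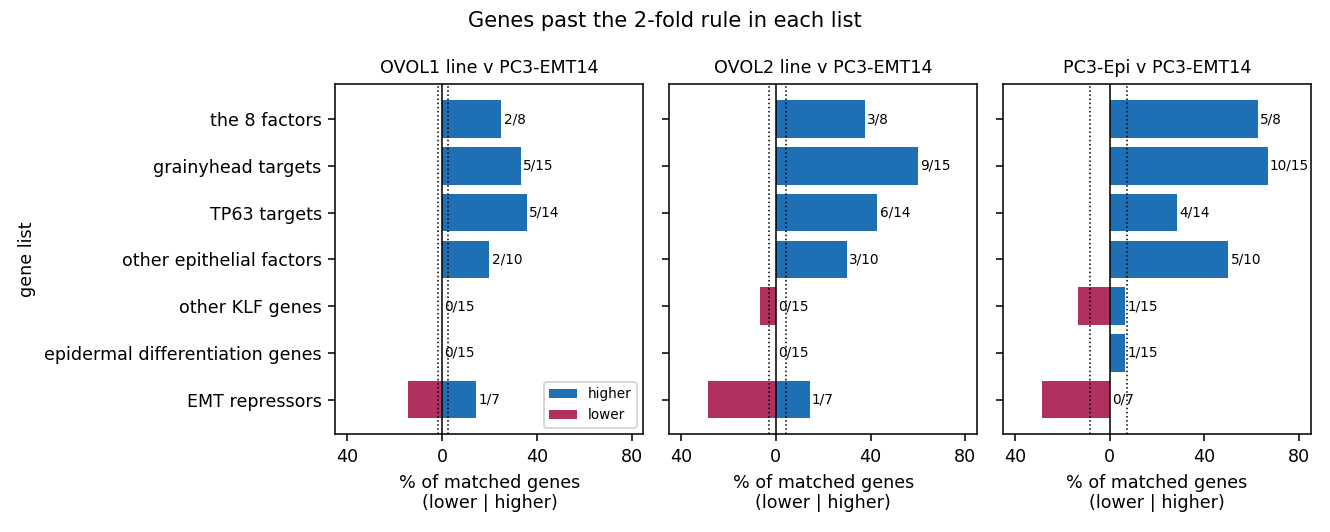
Percentage of each list's matched genes called higher (blue, right) or lower (red, left) in the 3 comparisons against PC3-EMT14, with the count called higher beside each bar. Dotted lines mark the percentage called among all genes over the floor, 2.43% and 1.54%, 4.42% and 2.93%, and 7.37% and 8.34%.

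The genes that start within 1 Mb of each factor were read beside it. Near GRHL2, none of 7 genes with a mean of at least 1 FPKM was called in any comparison, and their log2 ratios in PC3-Epi, with 0.1 FPKM added, ran from -0.82 to 0.43. Near GRHL1, none of 13 was called. Near GRHL3, 2 of 23 were called higher in PC3-Epi, and near OVOL2 1 of 14 was called lower. Near OVOL1, PC3-Epi had 3 of 71 called higher and 7 lower. Among all genes with at least 1 FPKM in either line, 7.37% were called higher in PC3-Epi and 8.34% lower. Whether the neighbours differ from these shares was not tested. The neighbours were also filtered otherwise, on their mean across all the lines. The largest of the 3 called higher near OVOL1 was CST6, a cysteine protease inhibitor. Its log2 ratios were 1.84 in the OVOL1 line, 3.39 in the OVOL2 line and 5.03 in PC3-Epi. Near KLF4, KLF5 and TP63 there were 2, 5 and 3 such genes, of which CLDN1, a tight junction gene near TP63, was called higher in the OVOL2 line and PC3-Epi and no other was called.

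**Figure D5:**
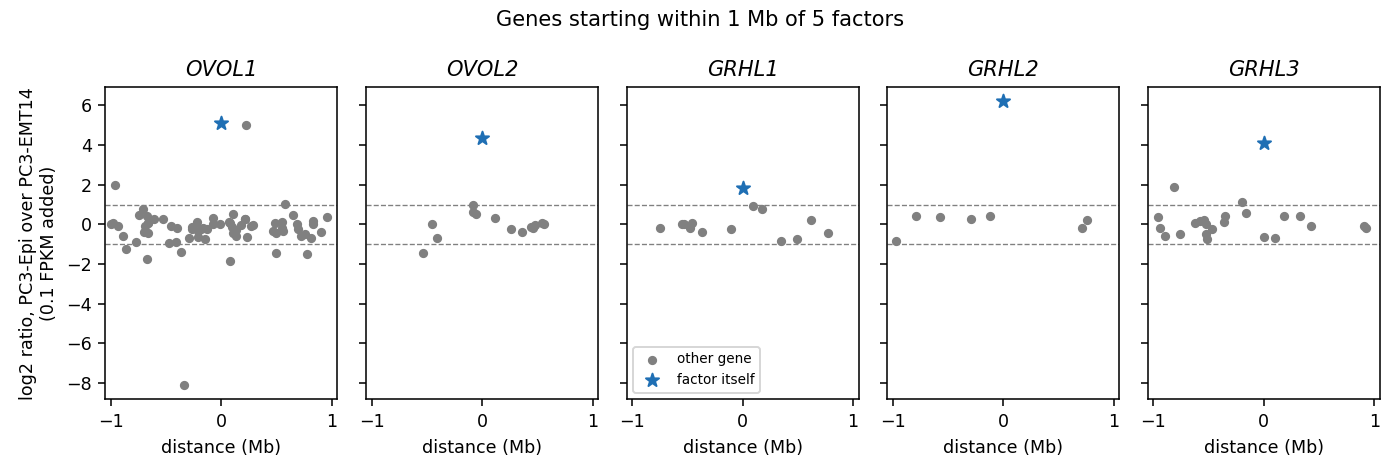
Log2 ratio of PC3-Epi over PC3-EMT14, with 0.1 FPKM added, against distance in Mb from the start of the factor, for genes with a mean of at least 1 FPKM (grey) and the factor itself (star); dashed lines mark ratios of 2 and 0.5. The GRHL2 star, at 6.20, stands far above its 7 neighbours, which run from -0.82 to 0.43; the point at -8.10 near OVOL1 is the short microRNA row MIR612.

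For each factor over the floor in any line, the genes with the most similar pattern were taken from 12633 others, by the root mean square difference of the log2 ratios against PC3-EMT14 with 0.1 FPKM added. These ratios share PC3-EMT14, there are at most 3 of them, and the likeness is a description. PPP1R1B, a phosphatase inhibitor, was closest to GRHL2, with a difference of 0.21 and levels of 0.221 FPKM in PC3-EMT14, 0.843 and 0.706 in the OVOL lines and 22.4 in PC3-Epi. The next were MIR622, a short microRNA row, at 0.51 and AP1M2, an epithelial clathrin adaptor subunit, at 0.58. For GRHL3 they were LRG1 (0.24), ACOT11 (0.32) and EPPK1 (0.33), the last encoding the cytoskeletal linker epiplakin. For GRHL1 they were LOC283335 (0.12), INADL (0.12), which encodes a tight junction scaffold, and HSD11B2 (0.14). Without the line that carries the transgene, OVOL1 was closest to BARX2 (0.11), CAMK2N1 (0.18) and CACNG4 (0.27), and OVOL2 to KLK6 (0.16), EPN3 (0.20) and ADORA1 (0.24). The flat factors had many equals. Within a difference of 0.1, 123 genes lay near KLF4, led by LOC541473, DHRS12 and DDRGK1, and 320 near KLF5, led by GPX1, TSPAN17 and MGA.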

How the data were processed

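RNA-seq of 10 samples in 4 groups was used. The deposited tables (Cuffdiff, per the labels; hg19) give FPKM values that the authors computed after alignment to an hg19 transcriptome with TopHat. Cuffdiff pooled the samples of a group, so each table holds 1 value per group. The tables also hold the authors' own log2 fold changes, test statistics, p-values, q-values and significance flags, none of which was used. 0 columns of values per sample were left unused. Fold changes, calls and medians were computed from the pooled FPKM with Python and pandas, and the call rule was tested on simulated data. No test was made, since no replicate values are given, and groups were not compared beyond the 2-fold rule. The median ratio of expressed genes moved by at most 0.04 on the log2 scale. Depth per sample is unknown. Gene lists and members were chosen with earlier results of these data known. Genes were named if they were members, passed the rule in a list in any comparison with PC3-EMT14, or were among the 3 most similar to a member. Other genes named, including CLDN3, CLDN4, MYC, NOTCH1, KLF6, KLF10, C1orf201 and the neighbours of members, were chosen after their values were seen. The check of neighbouring genes and the shares of the PC3-Epi difference were also added after the data were seen. Values of some single list genes are not reported here. Gene positions and overlaps came from the tables and from GENCODE on GRCh37.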

Additional observations from a re-analysis of the deposited data

How the results depend on the processing

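No paired analysis was possible because the deposited values are pooled per group, and for the same reason no sample could be left out. The number of factors called kept within 1.5 times its value in all comparisons when 0.1 FPKM was added, when ratios were divided by their median, when isoform rows were summed, and when the OVOL lines were compared through their tables against PC3-EMT14. Leaving out rows marked as failed, an alternative chosen after seeing the data, also left these counts as they were. With a fold threshold of 4 the OVOL1 line had 1 factor called. With no floor it had 5 (GRHL2, GRHL3 and TP63 joined) and the OVOL2 line 6 (OVOL1, GRHL2 and TP63 joined). With a floor of 5 FPKM the counts were 1, 1 and 3 in the OVOL1 line, the OVOL2 line and PC3-Epi, and with 1 FPKM added the OVOL1 line had 1. Over all genes, for the OVOL1 line, the OVOL2 line, PC3-Epi and the direct comparison, the main counts were 484, 904, 1954 and 375. They were 1073, 1851, 3915 and 910 at a fold of 1.5, 213, 336, 803 and 114 at a fold of 4, 3383, 3981, 5788 and 3049 with no floor, and 237, 479, 1129 and 210 with a floor of 5 FPKM. With 1 FPKM added they were 300, 595 and 227 in the OVOL1 line, the OVOL2 line and the direct comparison. These settings change the number of genes eligible or the size required by construction. In the direct comparison, 61.9% of calls were higher in the OVOL2 line, and 38.6% at a fold of 4. In the OVOL1 line the share was 61.2%, and 44.5% with no floor. Of 264 log2 ratios of the factors under alternatives, 41 moved by more than 0.1, each with a pseudocount. The fold and floor settings leave every ratio as it is, so they could move none. Of the called ratios 0 changed sign, which the fold, floor and pseudocount settings could not have produced. Of 444 list counts, 78 moved by more than 1.5 times.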

Other observations

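Among the relatives of the factors, 2 uncalled genes, chosen after their values were seen, stood higher in PC3-Epi than elsewhere. TP73, of the p53 family, was at 0.0139 FPKM in PC3-EMT14, 0.0522 in the OVOL1 line, 0.274 in the OVOL2 line and 0.7005 in PC3-Epi. TFCP2L1, of the grainyhead and CP2 family, was at 0.0835, 0.153, 0.159 and 0.968 FPKM. All of these are under 1 FPKM. Their widely expressed relatives TFCP2 and UBP1 were at 16.3 to 22.5 FPKM and 35.4 to 43.4 FPKM and were not called.

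TMPRSS2, an androgen-responsive luminal protease gene and the only prostate luminal marker called, was at 0.946 FPKM in PC3-EMT14, 1.43 in the OVOL1 line, 1.66 in the OVOL2 line and 5.50 in PC3-Epi. Of the epithelial keratin genes, KRT8 was called higher in the OVOL2 line and PC3-Epi (85.8 FPKM in PC3-EMT14, 244 and 296), and KRT19 was not called in any comparison with PC3-EMT14, at 608 to 862 FPKM.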
